A study of Mus musculus with 24 samples.

Results

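The activin subunit genes Inhba and Inhbb and the follistatin genes Fst, Fstl1 and Fstl3 were described in sorted cells of the embryonic mouse brain. These 5 genes, taken by symbol out of 25471 listed genes, were chosen with earlier results of the same comparisons known, so their levels and ratios are a description and not independent evidence. The mutants were Pdgfrb-Cre, Alk5(flox/flox), Zs/+ embryos, which the labels mark as having GMH-IVH, and the controls were Pdgfrb-Cre, Alk5(flox/+), Zs/+ embryos, labelled normal. Mutants and controls alike thus carried the Cre driver, the Zs reporter and at least 1 floxed Alk5 copy. Alk5 is the older name of Tgfbr1, a type I receptor for TGF-beta, and Pdgfrb drives Cre in pericytes but also in other mural and mesenchymal cells. Pericytes were sorted from 4 mutant and 4 control samples at E11.5 and from 4 mutant and 4 control samples at E13.5. Endothelial cells were sorted at E13.5 from 3 mutant and 5 control samples, which makes 24 messenger RNA libraries in all. The labels do not say whether samples were single embryos or pools, nor whether they came from separate litters, so the p-values cover no more than the variation among these samples.

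Activins are dimers of inhibin beta chains. INHBA encodes the beta A chain and INHBB the beta B chain, and the inhibin alpha chain can pair with either of them to make inhibins, which oppose activins. Activins bind the type II receptors ACVR2A and ACVR2B, which recruit the type I receptor ACVR1B, and the signal reaches SMAD2 and SMAD3, the same transducers that TGF-beta uses through ALK5. Follistatin, the product of Fst, wraps around activin and keeps it from its receptors. FSTL3 is a related secreted protein that also binds activin, while FSTL1 is a matrix-associated glycoprotein closer to SPARC that shares the follistatin domain.

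Each comparison gives 1 mean normalized count for mutants and 1 for controls, with a p and a step-up FDR, all computed by the authors. Values per library were not analysed here, so the spread between samples enters only through the authors' p, and a standard error (SE) below was derived from the ratio and its p. Inhbb in the E11.5 pericytes and both Inhbb and Fst in the endothelial cells were not analysed here. Tgfbr1 itself, counted over the whole gene, had a log2 ratio of mutant to control of 0.43 in pericytes at E11.5, of 0.03 in pericytes at E13.5 and of -0.11 in the endothelial sort, and the lowest FDR among these in the authors' deposited tables was 0.399. Reads over the deleted part were not separated, so this does not check the deletion. The tables were normalized separately, and levels are therefore compared across them only as percentiles or in parts per 1000000 of the summed means (ppm). In control pericytes, 13 listed pericyte markers summed to 1214 ppm at E11.5 and to 1453 ppm at E13.5. Endothelial markers summed to 114 ppm (10 markers) and 172 ppm (11 markers) in the same control groups. They include Erg, which stood at the 87.1st percentile in E13.5 control pericytes and the 70.3rd in endothelial controls. These sums thus do not measure endothelial cells alone. In the endothelial controls 12 pericyte markers summed to 126 ppm and 14 endothelial markers to 7786 ppm. Markers of fibroblasts and meninges summed to 6667 ppm in E11.5 control pericytes and to 12319 ppm in E13.5 control pericytes.

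At E11.5 the ligand gene Inhba and the antagonist gene Fst both fell in mutant pericytes, while Fstl1 and Fstl3 did not pass the test. Inhba had a mean of 20.7 in mutants, against 159 in controls, which is 7.68-fold lower in the authors' deposited table. Fst had a mean of 43.2 in mutants, against 156 in controls, which is 3.60-fold lower in the authors' deposited table. Of the 4 members tested at E11.5, 2 were called lower at an FDR under 0.05 and 0 higher, while of the 19301 genes tested 3.35% were called, 2.7% lower and 0.642% higher. Nothing is read from that count, since the same comparison entered the choice of the genes. The call of Inhba depends on how the spread is treated. When the E11.5 test statistics were divided by 1.51, which brings their median size to that of a standard normal, Inhba had an adjusted p of 0.267 and was no longer called, while Fst kept its call. In a bulk sample, fewer cells that express a gene and less of its RNA per cell cannot be told apart.

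**Figure D1:**
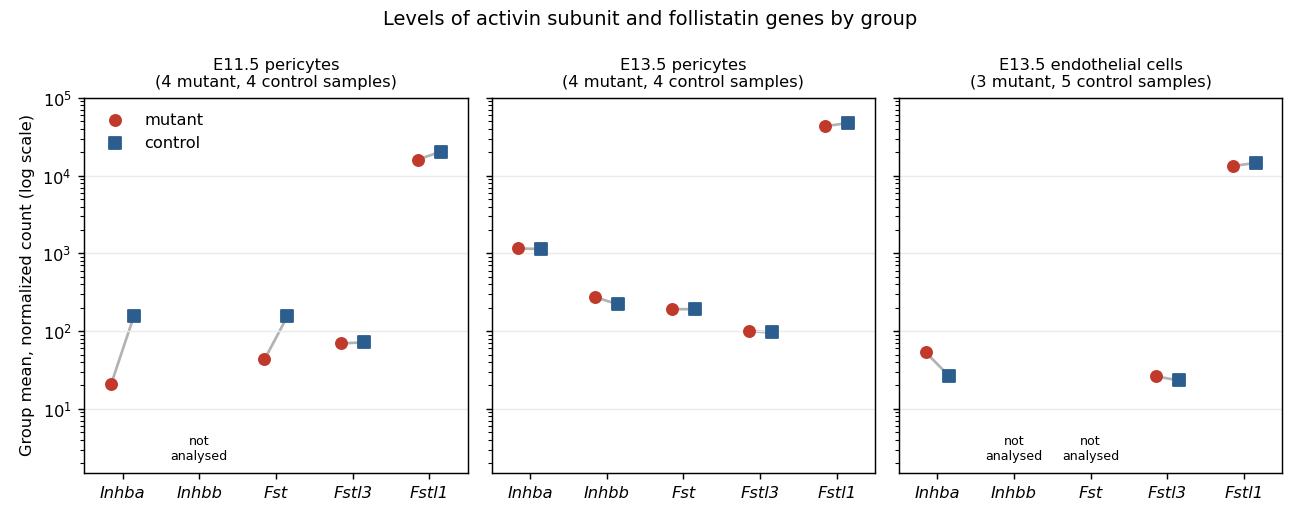
Group means of normalized counts (log scale) for each member in mutants (red circles) and controls (blue squares), 1 panel per comparison. Inhba and Fst lie lower in mutants at E11.5, with means of 20.7 and 43.2, and in E13.5 pericytes at 1156 and 192 in mutants, against 1139 and 191 in controls.

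Inhba lies on chromosome 13 at 16011851 to 16031621 on the plus strand (mm10, GENCODE), with a longest coding transcript of 6390 bases in 5 exons. Its log2 ratio in E11.5 pericytes was -2.94 (SE 0.55, FDR 6.4e-05), with an interval at 95% from -4.02 to -1.86, on the authors' deposited values, and this call was lost with the spread rescaled (adjusted p 0.267). It had the 9th lowest log2 ratio of the 19301 genes tested and ranked 27th by p. The mutant mean of 20.7 stood at the 23.2nd percentile of listed genes and the control mean of 159 at the 46.5th, so the mutant value rests on a low level. An annotated antisense gene, Gm48444, spans 5379 exonic bases of Inhba, and the pseudogene B230303A05Rik, also on the opposite strand, spans 1011. Since strand-specific counting is not stated in the sources used here, reads of the opposite strand could not be told apart from Inhba reads. Of the 50-base words in Inhba transcripts, 0.331% also occur in another gene and 0 in another member.

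The start of Inhba is shown beside that of Fstl3, because Inhba fell at E11.5 and Fstl3, an antagonist measured in all 3 comparisons, was not called. Windows of RefSeq (GRCm38.p6) matched 4 of the 5 members, Inhba, Inhbb, Fstl1 and Fstl3. The 250 bases before the start in RefSeq are given 5′ to 3′ on the strand of the gene, at chr13:16011601-16011850 on the plus strand for Inhba and chr10:79777024-79777273 on the plus strand for Fstl3. Capitals mark matches, on either strand, to the TATA box letters TATAAA and to the SMAD element letters CAGAC.
Inhba: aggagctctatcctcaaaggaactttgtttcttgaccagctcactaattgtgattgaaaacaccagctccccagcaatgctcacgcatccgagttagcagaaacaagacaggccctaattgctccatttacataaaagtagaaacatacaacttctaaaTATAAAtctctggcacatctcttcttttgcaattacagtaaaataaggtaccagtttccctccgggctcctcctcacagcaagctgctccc
Fstl3: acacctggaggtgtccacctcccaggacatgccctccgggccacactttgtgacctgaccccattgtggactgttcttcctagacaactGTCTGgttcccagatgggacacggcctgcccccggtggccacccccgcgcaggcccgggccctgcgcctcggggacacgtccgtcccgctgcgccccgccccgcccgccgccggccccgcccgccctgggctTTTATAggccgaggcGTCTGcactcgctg
The Inhba window was 43.2% G and C with 3 CpG dinucleotides, against medians of 52.4% and 6 over 32851 windows, while the Fstl3 window was 71.2% G and C with 22 CpG dinucleotides. The windows of Inhbb and Fstl1 were each 68% G and C. TATAAA occurred in Inhba at -91 to -86 and on the opposite strand in Fstl3 at -29 to -24, counted from the base before the start as -1, and in 12.4% of all windows. CAGAC occurred in Fstl3 at -161 to -157 and at -14 to -10 and in none of the other 3 windows, against 42.2% of all windows. The GC-rich SMAD letters GGCGCC, the AP-1 letters TGANTCA and the CCAAT letters were found in 0 of the 4 windows, against 9.59%, 6.75% and 33.8% of all windows. These matches are letters in a short window and show neither a binding site nor its absence.

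Fst lies on the minus strand of chromosome 13 at 114452290 to 114458951 (mm10), with a longest coding transcript of 2833 bases in 6 exons. Its log2 ratio in E11.5 pericytes was -1.85 (SE 0.24, FDR 1.53e-10), with an interval at 95% from -2.32 to -1.38, on the authors' deposited values. By p, Fst ranked 1st among the 19301 genes tested at E11.5, and its log2 ratio was the 100th lowest. Its mutant mean of 43.2 stood at the 32.0th percentile of listed genes and its control mean of 156 at the 46.2nd. The mutant value of Fst thus also rests on a low level. Its SE was less than that of Inhba (0.55), and the antisense gene Gm47040 spans 289 exonic bases of it.

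Fstl3 and Fstl1 showed no called difference at E11.5. The activin-binding gene Fstl3 (chromosome 10, 79777272 to 79782630, plus strand, mm10) averaged 69.4 in mutant and 71.8 in control pericytes (authors' deposited table). Its log2 ratio was -0.05 (SE 0.23, FDR 0.937, authors' deposited values), with an interval from -0.49 to 0.40. That interval does not include a change of the size seen for Fst, although smaller changes in either direction remain within it. Fstl1 (chromosome 16, 37776873 to 37836514, plus strand, mm10) averaged 16089 in mutant and 20385 in control pericytes (authors' deposited table). Its log2 ratio was -0.34 (SE 0.21, FDR 0.383, authors' deposited values), with an interval from -0.75 to 0.07. Fstl1 was among the most abundant RNAs of the table, at the 99.7th percentile in mutants and the 99.8th in controls.

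**Figure D2:**
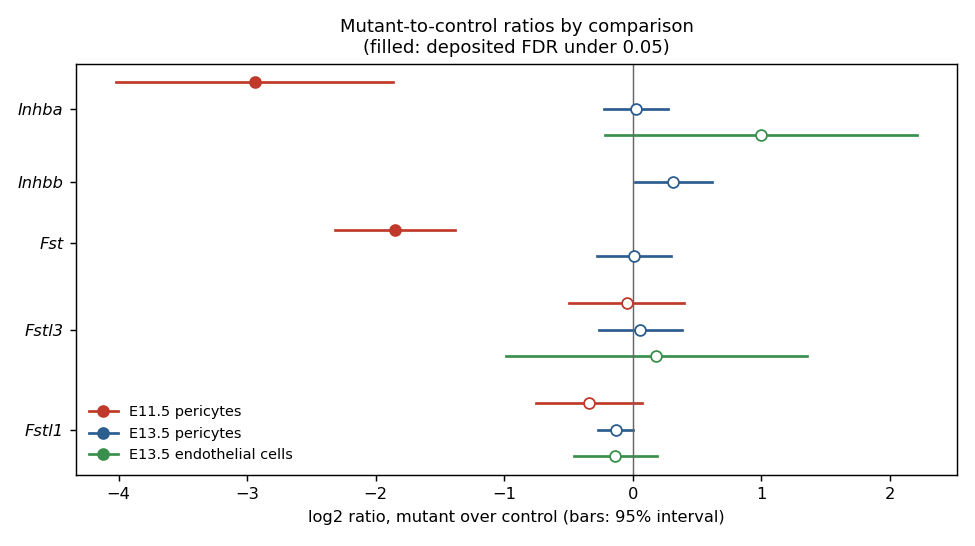
log2 ratio of mutant to control for each member (points) with its interval at 95% (bars), by comparison, with filled points for an FDR under 0.05. The 2 filled points are Inhba (-2.94) and Fst (-1.85) in E11.5 pericytes, and the E13.5 pericyte points for these genes lie at 0.02 and 0.01.

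Several marker lists were also lower in the E11.5 mutant libraries, where 2.7% of all genes tested were called lower and 0.642% higher. Of 13 pericyte markers tested, 5 fell and 0 rose, with a summed level of 903 ppm in mutants and 1214 in controls. Fibroblast and meningeal markers fell in 5 of 12 cases and rose in 0, and they summed to 4836 ppm in mutants, against 6667 ppm in controls. Among 10 markers of cartilage and bone progenitors 3 fell, and their sums were 2219 ppm in mutants and 2464 in controls. Of 14 myeloid markers 3 fell, with sums of 87.3 ppm in mutants and 172 in controls. Of 10 endothelial markers 1 fell, namely Erg, with sums of 58.7 ppm in mutants and 114 ppm in controls over the list. The median log2 ratios of these 5 lists lay between -1.03 and -0.49. Neural progenitor and neuron markers did not share this, with 0 of 9 called, 5 negative and 4 positive log2 ratios, a median of -0.08 and sums of 363 ppm in mutants and 386 ppm in controls. Of 4 erythroid markers 0 were called, with a median of -1.02 and sums of 3.32 ppm in mutants and 6.26 ppm in controls. The 2 Schwann and neural crest markers tested were not called either, and 1 was negative and 1 positive. With the spread rescaled, 0 markers of these lists were called at E11.5. The part of these markers in the lower Inhba and Fst was not tested.

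In E13.5 pericytes none of the 5 members was called, where 0.388% of 20084 genes tested were called, 0.164% lower and 0.224% higher. Inhba averaged 1156 in mutant and 1139 in control pericytes (authors' deposited table). Its log2 ratio was 0.02 (SE 0.13, FDR 1.00, authors' deposited values), with an interval from -0.23 to 0.27. Fst averaged 192 in mutant and 191 in control pericytes (authors' deposited table). The log2 ratio of Fst was 0.01 (SE 0.15, FDR 1.00, authors' deposited values), with an interval from -0.28 to 0.30. The interval of each of these 2 genes at E13.5 lies wholly above its interval at E11.5, on the authors' spread. Both genes were chosen with these values known, so this is a description, and the share of all genes with such intervals was not counted. In the test of the difference between stages below, 1.35% of 18267 genes were called with a negative difference. With the spread rescaled, Inhba lost its call in that test (adjusted p = 0.424).

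Inhbb, the gene of the beta B chain (chromosome 1, 119415465 to 119422248, minus strand, mm10), averaged 274 in E13.5 mutant and 221 in E13.5 control pericytes (authors' deposited table). Its log2 ratio was 0.31 (SE 0.15), and while its unadjusted p was 0.041, its FDR was 1.00 in the authors' deposited table. Fstl3 averaged 99.9 in mutant and 96.1 in control pericytes, and its log2 ratio was 0.06 (SE 0.16, FDR 1.00, authors' deposited values). Fstl1 averaged 43351 in mutant and 47527 in control pericytes (authors' deposited table). That is a log2 ratio of -0.13 (SE 0.07), with an unadjusted p of 0.0551 and an FDR of 1.00 in the authors' deposited table. Xist, which is expressed from the inactive X chromosome, had a mean of 5.73 in E13.5 mutant pericytes and 36145 in E13.5 control pericytes in the authors' deposited table. No label gives the sex of the samples, so in E13.5 pericytes a difference in sex between the groups cannot be told apart from genotype. Xist was not analysed here in the E11.5 pericytes or the endothelial cells, so whether sex differs between their groups is not known. At E13.5, in contrast to E11.5, the pericyte list had a median of 0.07 with 1 marker lower, and the fibroblast list 0.05 with 0 lower. Of 6 erythroid markers 0 were called, but all 6 were positive, with a median of 2.13. Their sums were 79.1 ppm in mutants and 18.1 in controls. Of 11 endothelial markers 9 were positive and 1 was called lower, with a median of 0.23. Those markers summed to 164 ppm in mutants and 172 in controls. Medians of the remaining lists lay between -0.11 and 0.07. The part of these markers in the E13.5 values of the members was not tested.

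**Figure D3:**
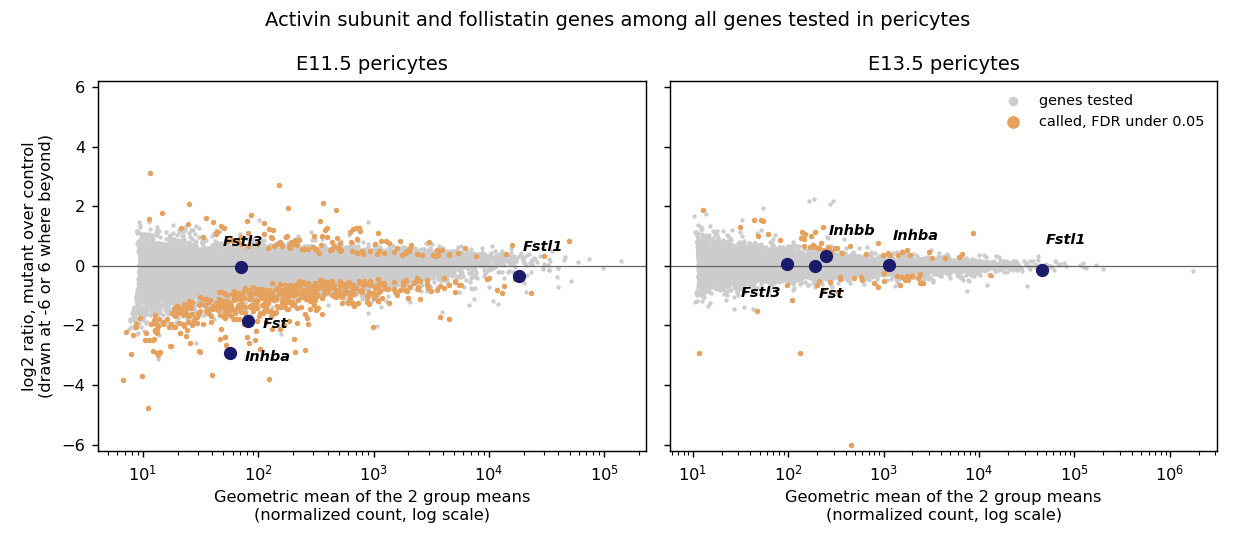
log2 ratio of mutant to control against the mean level (log scale) for all genes tested in E11.5 and E13.5 pericytes, with called genes in orange and the members in dark blue. At E11.5 Inhba and Fst lie at -2.94 and -1.85, and at E13.5 the 5 members lie between -0.13 and 0.31.

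The change between stages was tested as the difference of the log2 ratios, E11.5 minus E13.5, over 18267 genes. For Fst the difference was -1.86 (SE 0.28, Benjamini-Hochberg adjusted p = 6.08e-07), and for Inhba it was -2.96 (SE 0.56, adjusted p = 0.00028). By p, Fst ranked 1st and Inhba 10th in this test, in which 1.43% of genes were called, 1.35% with a negative and 0.0876% with a positive difference. Both genes entered the choice through the same values, so this test shows the size of the difference in these libraries and no more. The difference for Fstl1 was -0.21 (SE 0.22, adjusted p = 0.72), with an interval from -0.64 to 0.22. For Fstl3 it was -0.10 (SE 0.28, adjusted p = 0.91), with an interval from -0.66 to 0.45. With the spread of both tables rescaled, Fst kept its call in the difference between stages and Inhba lost it, with an adjusted p of 0.424.

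Inhba stood at different levels in the 3 comparisons. In pericytes it made up 1.31 ppm in mutants and 10.4 in controls at E11.5, and 46.1 in mutants and 44.8 in controls at E13.5. In E13.5 endothelial cells it made up 2.32 ppm in mutants and 1.26 in controls. Among controls, Inhba thus stood at the 46.5th percentile in E11.5 pericytes, the 79.1st in E13.5 pericytes and the 18.4th in E13.5 endothelial cells. Fst in pericytes made up 2.74 ppm in mutants and 10.2 in controls at E11.5, and 7.66 in mutants and 7.52 in controls at E13.5. Its control percentiles, 46.2 and 48.3, were close to each other. The percentile of Fstl3 was between 36.4 and 39.8 in the 4 pericyte groups and that of Fstl1 was at least 99.2 in all 6 groups. No test was made across the separately normalized tables. In control pericytes, markers of cartilage and bone progenitors summed to 2464 ppm at E11.5 and to 3613 ppm at E13.5. Pericyte markers summed to 1214 ppm and 1453 ppm in the same groups. A different mix of sorted cells at each stage cannot be told apart from a change of Inhba per cell.

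Per kb of the longest coding transcript, levels of different genes could be set side by side within a group. In E11.5 mutant pericytes the order per kb was Fstl1 (4246), Fstl3 (35.5), Fst (15.2) and Inhba (3.24), all in normalized counts per kb. In E11.5 controls it was Fstl1 (5379.95), Fst (54.9), Fstl3 (36.7) and Inhba (24.9) counts per kb. In E13.5 pericytes Inhba came second to Fstl1, with 181 counts per kb in mutants and 178 in controls. Fst had 67.8 counts per kb in E13.5 mutants and 67.5 in controls, and Inhbb had 64.5 in mutants and 51.8 in controls. Fstl3 had 51.1 counts per kb in E13.5 mutants and 49.1 in controls, so Fst, Inhbb and Fstl3 lay close together on this length. With the median transcript length of each gene, Fst stood apart, at 129.7 counts per kb in E13.5 mutants and 129.0 in controls, against 64.5 in mutants and 51.8 in controls for Inhbb and 64.5 in mutants and 62.0 in controls for Fstl3. Whether neighbours in these orders differ beyond the spread between samples could not be tested from group means.

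The quotient of antagonist over ligand, taken per kb within a group, does not depend on the scaling of a table. Fst over Inhba was 4.71 in E11.5 mutant pericytes and 2.21 in E11.5 controls. It was 0.375 in E13.5 mutants and 0.378 in E13.5 controls. Fstl3 over Inhba was 10.98 in E11.5 mutants and 1.48 in E11.5 controls, and 0.282 in E13.5 mutants and 0.276 in E13.5 controls. In pericytes, Fst and Fstl3 RNA per kb thus each exceeded Inhba RNA in both genotypes at E11.5 and were below it in both at E13.5. With the median transcript length, Fstl3 over Inhba was 8.59 in E11.5 mutants and 1.16 in E11.5 controls, and 0.221 in E13.5 mutants and 0.216 in E13.5 controls. A different mix of sorted cells at each stage cannot be told apart from a change per cell. In the endothelial cells Fstl3 over Inhba was 1.61 in mutants and 2.84 in controls. These quotients compare RNA and not protein, and they carry no test because the covariance of the 2 genes between samples is not known.

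**Figure D4:**
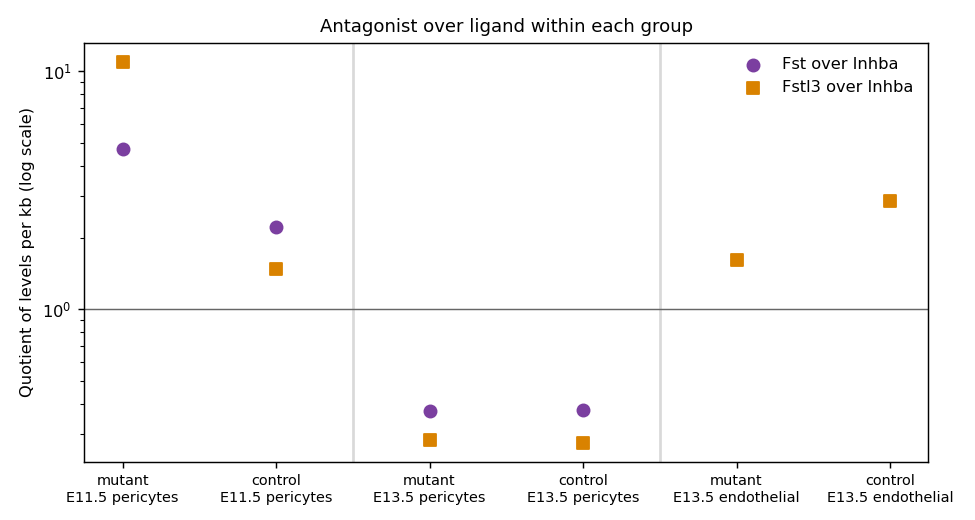
Quotient of the level per kb of Fst (circles) or Fstl3 (squares) over that of Inhba (log scale), for mutants left of controls in each comparison, with a line at 1. Both quotients are above 1 at E11.5 (4.71 and 10.98 in mutants) and below 1 in E13.5 pericytes (0.375 and 0.282 in mutants).

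In the E13.5 endothelial cells none of the 3 members tested was called, where 7.3% of 18132 genes were called, 2.19% lower and 5.11% higher. Inhba averaged 53.2 in mutant and 26.7 in control endothelial cells (authors' deposited table). Its log2 ratio was 1.00 (SE 0.62, FDR 0.377, authors' deposited values), with an interval from -0.22 to 2.21. Fstl3 averaged 26.3 in mutant and 23.2 in control endothelial cells, with a log2 ratio of 0.18 (SE 0.60, FDR 0.912, authors' deposited values). Prss57, a gene on the opposite strand that spans 1157 exonic bases of Fstl3, averaged 76.9 in mutant and 50.1 in control endothelial cells (FDR 0.119, authors' deposited table), above Fstl3 itself. Fstl1 averaged 13282 in mutant and 14604 in control endothelial cells (authors' deposited table). The log2 ratio of Fstl1 was -0.14 (SE 0.16, FDR 0.709, authors' deposited values), with an interval from -0.46 to 0.19. At these low means of 23.2 to 53.2 the intervals are wide, and that of Fstl3 runs from -0.99 to 1.35. Increases of more than 2-fold thus remain within the intervals of both Inhba and Fstl3. Of 10 erythroid markers 8 rose in the mutant endothelial sort, and their summed level was 69566 ppm in mutants and 2805 in controls. Of 14 myeloid markers 3 rose there, with sums of 1021 ppm in mutants and 640.3 ppm in controls, and the part of both lists in the endothelial Inhba values was not tested. With the spread rescaled 0 of the 8 and 0 of the 3 calls were kept. The difference between endothelial cells and pericytes at E13.5 was 0.98 for Inhba (SE 0.63, Benjamini-Hochberg adjusted p = 0.489 over 16920 genes, of which 3.94% were called, 0.987% with a negative and 2.95% with a positive difference). For Fstl1 it was -0.0042 (SE 0.18, adjusted p = 0.995) and for Fstl3 0.13 (SE 0.62, adjusted p = 0.956).

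Among 34 other genes of activin and nodal signalling, 24 were tested in E11.5 pericytes, of which 5 fell and 1 rose, where 2.7% of all genes were called lower and 0.642% higher. With the spread rescaled 0 of these 6 calls were kept, and the lowest adjusted p was 0.52, that of Inha. Their median log2 ratio was -0.31, against -0.0044 over all genes tested. Inha, the gene of the inhibin alpha chain, averaged 42.6 in mutant and 105 in control pericytes and fell 2.47-fold (log2 ratio -1.30, SE 0.28, FDR 0.000915, authors' deposited values). Of the antagonist genes, Wfikkn1 and Wfikkn2, whose products bind myostatin and GDF11, went opposite ways. Wfikkn2 fell to 226 in mutants, against 459 in controls (FDR 0.032), and Wfikkn1 rose to 33.1 in mutants, against 13.7 in controls (FDR 0.0343), in the authors' deposited table. Fstl4, which encodes a follistatin-like protein, fell to 17.3 in mutants, against 52.1 in controls (FDR 0.0449, authors' deposited table). The convertase gene Pcsk6, which encodes a protease that cleaves precursors of the TGF-beta family, fell to 13.7 in mutants, against 39.1 in controls (FDR 0.0495, authors' deposited table). Inha in mutants, Fstl4, Pcsk6 and Wfikkn1 rest on low levels, as Inhba does.

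Of 4 receptor genes of the list tested at E11.5, 1 fell, and of 5 signal transducer genes 0 were called. Acvr1, which encodes a type I receptor mainly of BMPs, fell 2.35-fold at E11.5 (log2 ratio -1.23, SE 0.31, FDR 0.00679, authors' deposited values). Acvr2a and Acvr2b, the type II receptor genes, had log2 ratios of 0.21 (SE 0.15) and 0.09 (SE 0.38) at E11.5, and Acvr1b, the type I receptor gene of activin, had one of 0.27 (SE 0.29). FDR for these 3 was 0.445, 0.933 and 0.645 in the authors' deposited table. Smad2 and Smad3, which encode the transducers, had log2 ratios of 0.22 (SE 0.15) and -0.27 (SE 0.21), with FDR of 0.436 and 0.515 (authors' deposited table). In E13.5 pericytes 25 genes of the list were tested, 0 fell and 1 rose, where 0.388% of all genes were called, and the median log2 ratio was -0.02, against 0.0012 over all genes tested. That gene was Tgfbr3, which encodes betaglycan, a co-receptor for TGF-beta and inhibin, which averaged 3492 in mutant and 2512 in control pericytes (log2 ratio 0.48, SE 0.09, FDR 9.99e-05, authors' deposited values). Inha had a log2 ratio of -0.28 (SE 0.13, FDR 1.00) there, on the authors' deposited values. In endothelial cells 23 were tested and 0 were called, with a median of -0.19, against -0.013 over all genes tested.

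**Figure D5:**
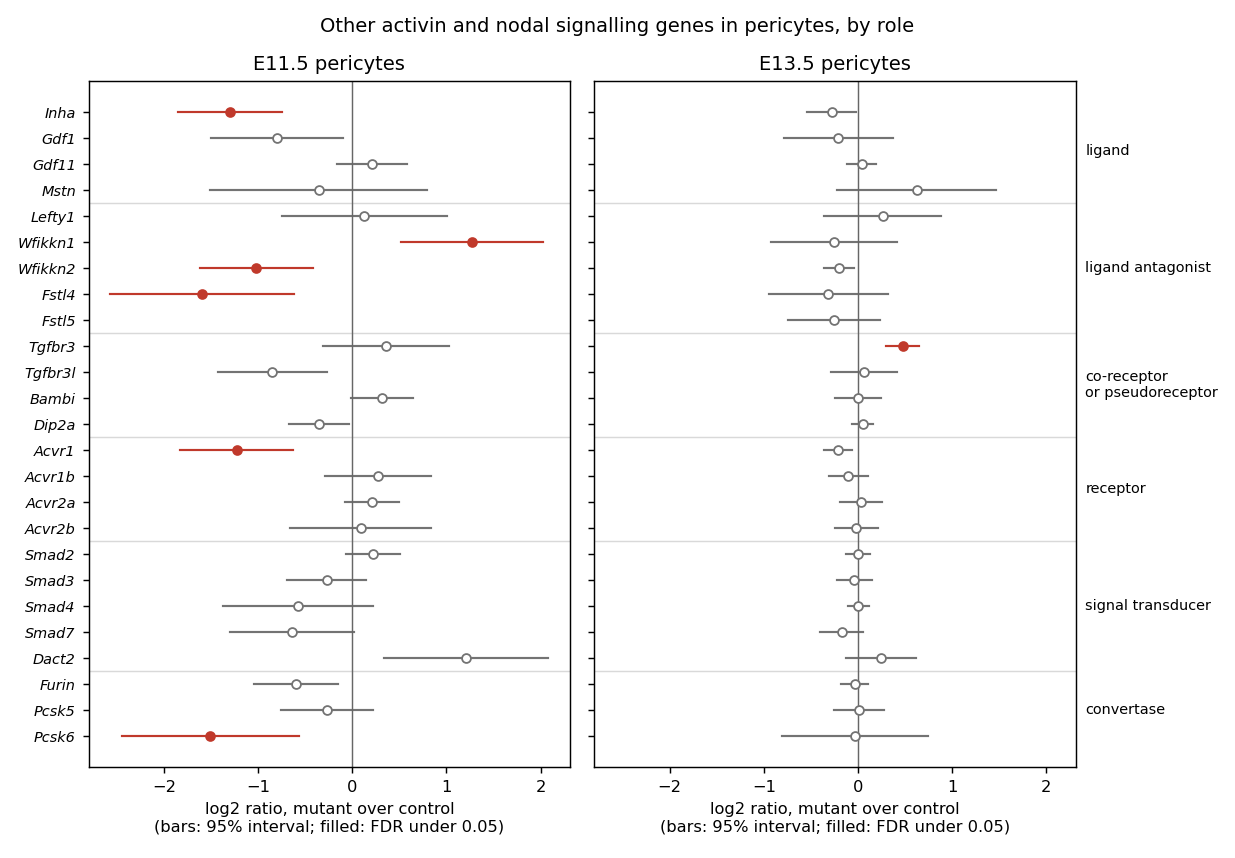
log2 ratio of mutant to control (points) with its interval at 95% (bars) for the tested genes of activin and nodal signalling in E11.5 and E13.5 pericytes, grouped by role, red and filled where the FDR is under 0.05. At E11.5, 5 genes fell (Inha, Wfikkn2, Fstl4, Acvr1, Pcsk6) and Wfikkn1 rose, and at E13.5 Tgfbr3 alone was called.

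A second list held 12 other proteins with a follistatin-like or Kazal-type domain. At E11.5, 2 fell and 1 rose, where 2.7% of all genes were called lower and 0.642% higher. Of the 12, 11 had a negative log2 ratio, against 50.4% of all genes tested, and the median was -0.56, against -0.0044. With the spread rescaled 0 of the 3 calls were kept, and the adjusted p of Igfbp7 was 0.0569. Igfbp7, which encodes a secreted protein that binds insulin-like growth factors, fell to 11.4 in mutants, against 81.8 in controls (log2 ratio -2.85, SE 0.44, FDR 3.96e-07, authors' deposited values). Its mutant mean is a low level, below that of Inhba (20.7). Agrn, the basement membrane proteoglycan gene agrin, fell 1.56-fold (FDR 0.00492) and Sparcl1, a matricellular protein gene, rose 1.29-fold (FDR 0.0143) in the authors' deposited table. At E13.5, 0 of 12 were called in pericytes, with a median of -0.02. Igfbp7 had a log2 ratio of -0.57 there (FDR 0.0957, authors' deposited values). Its adjusted p was 0.0106 with the spread rescaled, which in E13.5 pericytes divides by 0.864 and so enlarges every test statistic. In endothelial cells 1 of 12 was called, near the 7.3% called over all genes, namely the proteoglycan gene Spock2, which was 1.42-fold lower (FDR 0.0198, authors' deposited table; adjusted p 0.526 with the spread rescaled).

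By Euclidean distance over the log2 ratios of the 3 comparisons, the genes nearest to Inhba among 10658 candidates were Slc14a1, a urea transporter gene (distance 0.30), the transcription factor gene Nfix (0.74) and the angiotensin receptor gene Agtr2 (0.74). Slc14a1 had a log2 ratio of -2.92 in pericytes at E11.5, of 0.20 in pericytes at E13.5 and of 0.76 in the endothelial sort (authors' deposited values). Nfix was called in the endothelial cells (FDR 0.00202, authors' deposited table), unlike Inhba. Over the 2 pericyte comparisons, a choice made after the values were seen, the genes nearest to Fst were Pgm5, Tbx2 and Aqp1, at distances of 0.042, 0.065 and 0.074. Pgm5 and Tbx2 were called at E11.5 (FDR 0.00183 and 0.00205) and Aqp1 was not (FDR 0.155) in the authors' deposited table. With the spread rescaled, 0 of these nearest genes were called in any comparison. Near Fstl1 lay Mcu, Prmt9 and Ino80d and near Fstl3 lay Lzts2, Arpc4 and Surf2, none of them called in any comparison, at distances of at most 0.039.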

How the data were processed

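Messenger RNA of flow-sorted cells was sequenced on a NovaSeq from KAPA libraries, as the labels' protocols state. For the authors' steps, the submitters' processing notes list Partek, Bowtie2 and DESeq2 (no version) and the build mm10. Their annotation, strand setting, filters and model are not given in the sources used here. Per the file headers, the deposited tables hold the authors' p-value, step-up FDR, ratio of mutant to control and 1 least-squares mean per group, read as a signal (mean normalized count, scale not stated). Depth per library is therefore unknown. The signed fold change in the deposited tables was not used. Recomputing Benjamini-Hochberg adjustment from the deposited p-values gave the deposited FDR, over 19301 genes in E11.5 pericytes, 20084 in E13.5 pericytes and 18132 in endothelial cells.

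To obtain an SE, the log2 ratio was divided by the normal quantile that the p-value (taken as two-sided, from a Wald test) corresponds to. Intervals are at 95%. Differences between comparisons, which share no libraries, are log2 ratios subtracted and divided by the root of the summed squared SE, with Benjamini-Hochberg adjustment, and this step was tested on simulated data. Lengths and positions are from GENCODE M21, and levels per kb use the longest protein-coding transcript, chosen over the longest of any kind after the annotation showed a retained intron in that of Fst. The rule for named genes takes the 5 members, every called gene of the 2 signalling and domain lists, Acvr1b, Acvr2a, Acvr2b, Smad2, Smad3 and Tgfbr1, and the 3 genes nearest to each member (none for Inhbb, which was tested in 1 table). Xist, Erg, Prss57, Gm48444, B230303A05Rik and Gm47040 were named after their values or positions were seen. Members and lists were chosen with earlier results of these data known. Alternatives were no filter, an FDR of 0.1, an absolute log2 ratio of at least 1, rescaled spread, scaling, centring, a pseudocount of 1 and transcript length. Python 3.11.15, pandas 2.3.3, scipy 1.17.1 and matplotlib 3.10.9 were used.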

Additional observations from a re-analysis of the deposited data

Results flagged for a closer look

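The mutant-to-control ratio of Fst differed between the pericyte stages, with a difference of the log2 ratios (E11.5 minus E13.5) of -1.86 (Benjamini-Hochberg adjusted p = 6.08e-07). For Inhba the same difference was -2.96 (adjusted p = 0.00028, and 0.424 with the spread rescaled). Both genes were chosen with these values known, so the test shows the size of the difference in these libraries and no more. In the E13.5 pericytes sex cannot be told apart from genotype, and in the E11.5 pericytes the sex of the samples is not known. Samples that stand apart from their group could not be looked for, since values per library were not analysed here.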

How the results depend on the processing

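With the spread of the test statistics rescaled, 1 member (Fst) in place of 2 was called in E11.5 pericytes, and 1 in place of 2 in the difference between stages. Over all genes, rescaling gave 5 calls against 646 in E11.5 pericytes, 142 against 78 in E13.5 pericytes, 49 against 1323 in endothelial cells, 2 against 262 for the stages and 15 against 666 for the cell types. The same rescaling was applied to the gene lists after the data were seen. At E11.5 it kept 0 of 6 calls among signalling genes and 0 of 3 among follistatin-domain genes. In E13.5 pericytes the call of Tgfbr3 stayed, but the divisor there was 0.864, which enlarges every test statistic. No call could be lost that way. An absolute log2 ratio of at least 1 gave 315 calls in E11.5 pericytes, 17 in E13.5 pericytes and 247 in endothelial cells, and an FDR of 0.1 gave 1139 in E11.5 pericytes. The counts of members called stayed as reported with no filter on low genes, with an FDR of 0.1 and with an absolute log2 ratio of at least 1, and the differences likewise with no filter and with centring. An FDR of 0.1 cannot remove a call, and Inhba and Fst at E11.5 already passed the limit on the ratio. Values for single members under other settings numbered 73, members called in no comparison included. Of these, 69 kept their direction and their side of the threshold and 2 lost it, both of Inhba with the spread rescaled. The other 2 changed sign without being called, namely Fstl3 at E11.5 (0.073 when centred on genes of like level, a setting added after the data were seen) and the endothelial minus pericyte difference of Fstl1 (0.010 when centred). Centred on genes of like level, Inhba and Fst at E11.5 had log2 ratios of -2.82 and -1.77 (adjusted p = 0.000128 and 1.82e-09). With the median transcript length, Fst over Inhba per kb was 5.58 in mutants and 2.62 in controls at E11.5, and 0.444 in mutants and 0.448 in controls at E13.5. No paired analysis was possible because the tables used hold group means and no values per library, and leaving out single replicates was not run for the same reason. Low levels limit Inhba and Fst in E11.5 mutants and Inhba and Fstl3 in endothelial cells.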
